A study of Homo sapiens with 54 samples.

Results

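The comparison set HepG2 cells after 6 h in interleukin-10 (IL-10) against HepG2 cells after 3 h in IL-10, 3 libraries each. Its members were the 6 libraries, of 54 in the series, whose labels name this line, this cytokine and one of these times. HepG2 is a human liver cancer line (labelled as a liver cancer stem cell), grown in 6-well plates in DMEM with 10% fetal bovine serum. IL-10 was given at 50 ng/mL according to the series' design text, while the treatment protocol in the labels does not list it; that protocol gives IL-6 at 50 ng/mL and tumour necrosis factor alpha (TNF-α) at 100 ng/mL, so TNF-α was compared with IL-10 at another dose. HepG2 libraries given an equal volume of medium alone (negative control, NC, 3 libraries) are shown beside them, as are HepG2 libraries given interleukin-6 (IL-6) or TNF-α and colon cancer HCT116 libraries given IL-10, each for 6 h or 3 h. HepG2 libraries given the compound Torin1 at 1 µM for 6 h or 3 h are not shown, but they enter the filter and the estimate of spread. The fit of both lines also takes in HCT116 libraries given medium alone, IL-6, TNF-α or Torin1. The labels give NC no time, so time in IL-10 and time since anything was added to the wells cannot be told apart. The design text names TIMP1, TIMP2, the matrix metalloproteinases (MMPs) and EGF as the genes of interest.

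IL-10 binds a receptor made of IL10RA and IL10RB, and through the kinases JAK1 and TYK2 it activates the transcription factor STAT3, whose feedback inhibitor is SOCS3. This is best known in macrophages, while in hepatocytes STAT3 is the mediator of the IL-6 acute phase response. Immediate early genes are switched on within minutes of a stimulus by factors already in the cell, such as SRF, YAP with its TEAD partners, AP-1 and NF-kB. Many of their messages are short-lived, and many of their products act back on the pathway that induced them.

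As recovered from the deposited values, 62339982, 68727149 and 54001298 reads lay behind the 3 libraries at 6 h, against 56351321, 52939551 and 70408782 reads behind the 3 at 3 h. Levels are FPKM, which divides fragments by transcript length as well as by library size, so they can be set side by side between genes. Replicates are biological according to the design text, but separate cultures are not mentioned, so the p-values describe library-to-library spread that could be technical only. The messages of the 13 mitochondrially encoded proteins took 7.24% to 8.54% of reads. Replicate counts differed beyond sampling noise in every pair, most between replicates 1 and 2 at 3 h (chi-square per degree of freedom 16.9, against 5.3 to 12.3 in the other pairs). Of 20 hepatocyte markers, 18 averaged at least 1 FPKM, led by albumin (ALB) at 8317 FPKM. Their summed level was 22000 to 22940 FPKM at 6 h and 22690 to 23460 FPKM at 3 h. Of 15 blood cell markers 2 reached 1 FPKM, of which lysozyme (LYZ) averaged 1383 FPKM, and 5 were listed at 0 in all 6 libraries. The blood cell sum was 1401 to 1409 FPKM at 6 h and 1363 to 1474 FPKM at 3 h. Of 11 fibroblast and stellate cell markers 1 reached 1 FPKM, ACTA2 at 6.748 FPKM, and none of 9 endothelial markers did. Of 12 cholangiocyte and colon epithelium markers 7 did, led by FABP1 at 505.6 FPKM. The sum of these 12 was 759.5 to 852.8 FPKM at 6 h and 750.5 to 785.2 FPKM at 3 h.

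The promoters of 6 of the genes that fell are printed because they carry letters of the factors just named. Each is the RefSeq window of 300 bases in GRCh38.p14, from 250 bases before to 50 bases after the start, read 5′ to 3′ on the strand of the gene. Capitals mark every match to the TEAD element GGAATG, the AP-1 site TGANTCA, the SRF CArG box or the NF-kB site, all searched on both strands. The windows are chr10:90921038-90921337 (minus strand) for ANKRD1, chr15:39580829-39581128 (plus) for THBS1, chr6:131951323-131951622 (minus) for CCN2, chr6:43171019-43171318 (plus) for SRF, chr14:35404700-35404999 (minus) for NFKBIA and chr2:227813592-227813891 (plus) for CCL20.
ANKRD1: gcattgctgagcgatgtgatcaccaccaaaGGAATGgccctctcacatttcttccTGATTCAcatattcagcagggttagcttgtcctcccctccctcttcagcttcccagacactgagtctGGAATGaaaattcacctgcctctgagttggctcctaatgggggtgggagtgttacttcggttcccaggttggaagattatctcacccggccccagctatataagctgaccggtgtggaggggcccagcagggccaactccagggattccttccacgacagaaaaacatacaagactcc
THBS1: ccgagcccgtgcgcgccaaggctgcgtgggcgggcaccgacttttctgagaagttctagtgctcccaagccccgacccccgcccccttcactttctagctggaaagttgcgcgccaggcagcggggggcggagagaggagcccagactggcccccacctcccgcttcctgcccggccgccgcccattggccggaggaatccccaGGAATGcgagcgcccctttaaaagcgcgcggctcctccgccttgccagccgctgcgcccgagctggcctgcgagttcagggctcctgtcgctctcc
CCN2: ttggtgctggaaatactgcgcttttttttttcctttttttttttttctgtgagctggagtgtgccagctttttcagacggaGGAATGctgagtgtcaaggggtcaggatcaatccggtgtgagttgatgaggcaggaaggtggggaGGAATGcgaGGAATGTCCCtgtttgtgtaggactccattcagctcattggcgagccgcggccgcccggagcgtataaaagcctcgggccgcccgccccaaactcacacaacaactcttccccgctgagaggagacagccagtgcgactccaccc
SRF: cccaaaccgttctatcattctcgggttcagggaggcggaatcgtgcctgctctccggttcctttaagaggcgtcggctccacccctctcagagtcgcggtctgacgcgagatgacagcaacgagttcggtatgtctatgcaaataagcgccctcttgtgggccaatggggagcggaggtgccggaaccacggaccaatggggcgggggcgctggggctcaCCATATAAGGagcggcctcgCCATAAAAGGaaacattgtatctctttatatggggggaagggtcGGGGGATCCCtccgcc
NFKBIA: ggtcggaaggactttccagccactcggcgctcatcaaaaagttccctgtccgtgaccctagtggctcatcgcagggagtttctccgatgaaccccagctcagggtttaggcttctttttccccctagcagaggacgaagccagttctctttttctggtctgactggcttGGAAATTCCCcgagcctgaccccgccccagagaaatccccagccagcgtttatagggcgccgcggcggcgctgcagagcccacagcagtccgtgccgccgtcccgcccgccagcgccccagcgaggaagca
CCL20: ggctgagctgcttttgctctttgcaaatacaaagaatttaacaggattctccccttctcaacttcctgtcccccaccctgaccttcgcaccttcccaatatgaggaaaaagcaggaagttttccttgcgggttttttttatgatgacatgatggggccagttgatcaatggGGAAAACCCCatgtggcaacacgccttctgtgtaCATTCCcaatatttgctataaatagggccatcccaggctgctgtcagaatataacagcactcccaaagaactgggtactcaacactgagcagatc

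ANKRD1 held the TEAD letters 220 and 128 bases before its start and an AP-1 match 195 before it, and THBS1 held the TEAD letters 46 before it. CCN2 held the TEAD letters 169, 104 and 95 before its start, and the last overlapped an NF-kB match. SRF held a CArG match 30 and another 10 bases before its own start, and an NF-kB match 34 after it. NFKBIA had an NF-kB match 81 bases before its start and CCL20 had one 79 before, with the TEAD letters, read on the minus strand, 45 before. The promoters of CXCL8 and JUNB, which also fell, and of CYP1A1, which rose, were searched too and are not printed. CXCL8 held only an AP-1 match, 137 bases before its start, and JUNB held no match. CYP1A1 held a CArG match 34 bases before its start. Among 29 genes with a promoter in the table, of the 32 called at least 2-fold lower and without copies in the annotation, 10 held an NF-kB match (34.5%), 6 the TEAD letters (20.7%), 3 an AP-1 match (10.3%) and 2 a CArG match (6.9%). Among the 8358 tested genes with a promoter the shares were 12.6%, 10.8%, 4.3% and 1.01% in the same order, and among all 27305 promoters 10.8%, 14%, 7.76% and 1.29%. A match is a run of letters and not a measured binding site.

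At 6 h the messages of growth-responsive, mechanically responsive and inflammatory early genes stood far below their level at 3 h, and few genes moved as far the other way. ANKRD1, a nuclear ankyrin repeat protein and a standard YAP target, had 20.7% of its 3 h level, and thrombospondin 1 (THBS1), a secreted matrix protein, had 25.4%. NFKBIA, the inhibitor that returns NF-kB to the cytoplasm, had 40.7%. CYP1A1, a detoxifying cytochrome P450, rose by 1.28 on the log2 scale.

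Of 11280 genes that reached 1 FPKM in 3 or more of the 27 HepG2 libraries, 1805 (16.0%) were called at a limma adjusted p under 0.05, the rule for every call here. Of these, 725 (6.43%) were higher and 1080 (9.57%) lower at 6 h. All 3 libraries at 6 h lay on one side of all 3 at 3 h for 3720 genes (33%), of which 1754 were called. Differences were small for most called genes, since 10 rose and 107 fell by at least 1.5-fold, and 3 rose and 33 fell by at least 2-fold, on the log2(FPKM + 1) scale, which understates the change of low genes. With scaling to total reads, 1354 genes were higher and 720 lower (65.3% of calls higher, against 40.2%), so the split of small changes between directions depends on the scaling. With the spread estimated from these 6 libraries alone, 1020 genes were called. The median difference over all genes tested was -0.012. In bulk samples, fewer cells of a kind and less RNA per cell cannot be told apart.

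**Figure D1:**
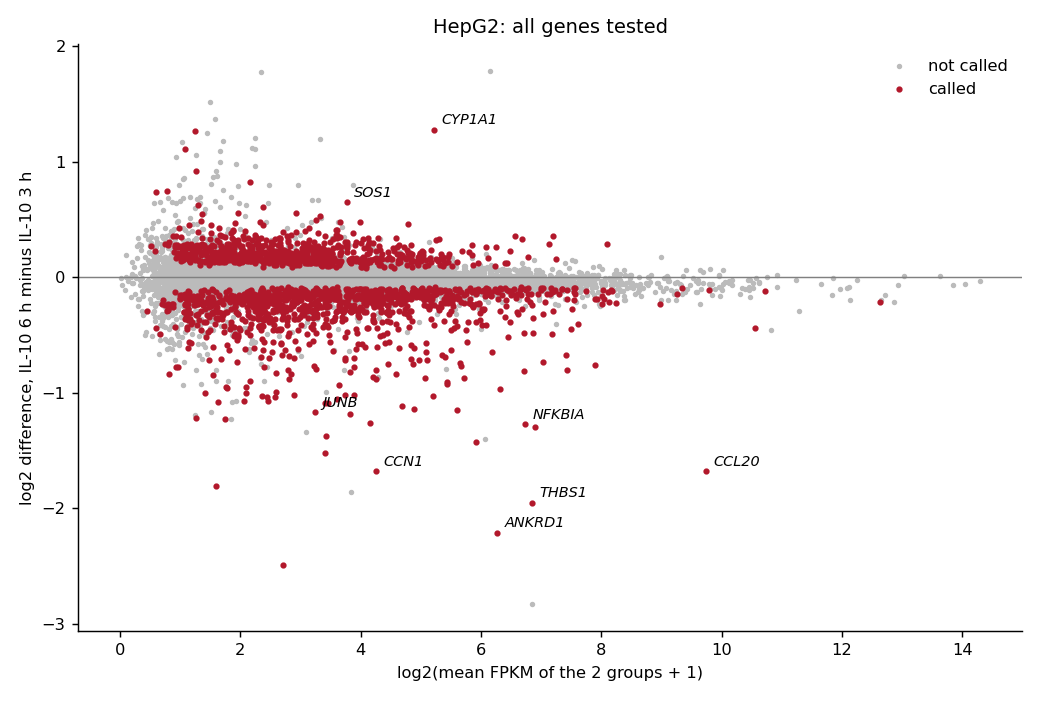
Difference (6 h minus 3 h, log2 scale) of each of the 11280 genes tested against its mean level, log2(mean FPKM of both groups + 1), with the 1805 called genes in red. The largest called changes at medium and high levels lie below 0, with CYP1A1 as the labelled exception.

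The 12 largest falls and 12 largest rises described next were taken from called genes that averaged 5 FPKM or more and whose groups did not overlap, so the separation of their groups was a condition of the choice. ANKRD1 (Entrez 27063, chromosome 10, 90912096 to 90921087) had 25.68, 29.24 and 23.36 FPKM in the 6 h libraries, against 135.3, 147.2 and 95.73 FPKM in the 3 h libraries. Replicate 3 was the lowest in both groups. The difference was -2.21 (SE 0.14, limma adjusted p = 2.91e-10). THBS1 (Entrez 7057, chromosome 15, 39581079 to 39599466) had 47.74, 47.46 and 43.24 FPKM at 6 h, against 178.5, 208.4 and 158.2 FPKM at 3 h. Its 6 h libraries were close to each other and far under every 3 h library, a difference of -1.95 (SE 0.089, limma adjusted p = 3e-12). NFKBIA (Entrez 4792, chromosome 14, 35401513 to 35404749) had 64.61, 59.47 and 59.12 FPKM at 6 h, against 142.8, 175.0 and 131.8 FPKM at 3 h. Replicate 2 was the highest of its 3 h libraries, and the difference was -1.27 (SE 0.11, limma adjusted p = 3.46e-08).

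Beside NC, the 3 genes stood above the medium control at 3 h and below it at 6 h. In NC, ANKRD1 had 35.31, 42.35 and 37.01 FPKM, which lay over all 6 h libraries and under all 3 h libraries. ANKRD1 differed from NC by -0.54 at 6 h (limma adjusted p = 0.014) and by 1.68 at 3 h (limma adjusted p = 4.96e-08). THBS1 differed from NC by -0.64 at 6 h (limma adjusted p = 0.000268) and by 1.31 at 3 h (limma adjusted p = 6.44e-09), and NFKBIA by -0.37 at 6 h (limma adjusted p = 0.035) and by 0.90 at 3 h (limma adjusted p = 6.44e-06). These comparisons share the NC libraries with each other and the IL-10 libraries with the difference between times. At 6 h against NC 1317 genes were called (11.7%), 212 higher (1.88%) and 1105 lower (9.80%), and at 3 h against NC 2149 (19.1%), 809 higher (7.17%) and 1340 lower (11.9%).

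Among the other 9 of the 12 largest falls named, CCL20, a chemokine for dendritic cells and lymphocytes, was the most abundant, with 397.6, 415.9 and 398.8 FPKM at 6 h, against 1380, 1350 and 1179 FPKM at 3 h. Its level at 6 h was 31.0% of that at 3 h (difference -1.68, SE 0.087, limma adjusted p = 2.06e-11). CCN1, a matricellular protein, had 8.331, 8.945 and 6.859 FPKM at 6 h, against 28.04, 33.64 and 22.69 FPKM at 3 h (difference -1.68, SE 0.15, limma adjusted p = 3.46e-08). Its relative CCN2 (connective tissue growth factor) had 67.66, 68.26 and 66.9 FPKM at 6 h, against 156.9, 192.5 and 157.0 FPKM at 3 h (difference -1.30, SE 0.071, limma adjusted p = 5e-11). The 6 h values of CCN2 were close together.
SAMD4A, an RNA-binding regulator of translation, fell by 1.52, TCIM, a small regulator of Wnt signalling, by 1.43, and the small MAF factor MAFF by 1.37 (log2 scale). TNFAIP3, the ubiquitin-editing enzyme A20 that limits NF-kB signalling, had 7.672, 7.791 and 7.331 FPKM at 6 h, against 18.15, 21.18 and 16.56 FPKM at 3 h (difference -1.18, SE 0.085, limma adjusted p = 2.22e-09). The neutrophil chemokine CXCL8 had 10.13, 10.24 and 8.038 FPKM at 6 h, against 25.86, 26.28 and 20.26 FPKM at 3 h (difference -1.26, SE 0.14, limma adjusted p = 8.64e-07). JUNB, an AP-1 subunit, had 5.372, 4.624 and 4.499 FPKM at 6 h, against 12.52, 13.75 and 10.19 FPKM at 3 h (difference -1.17, SE 0.11, limma adjusted p = 1.15e-07). All 12 falls kept their sign and their call under the 17 other settings tried.

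**Figure D2:**
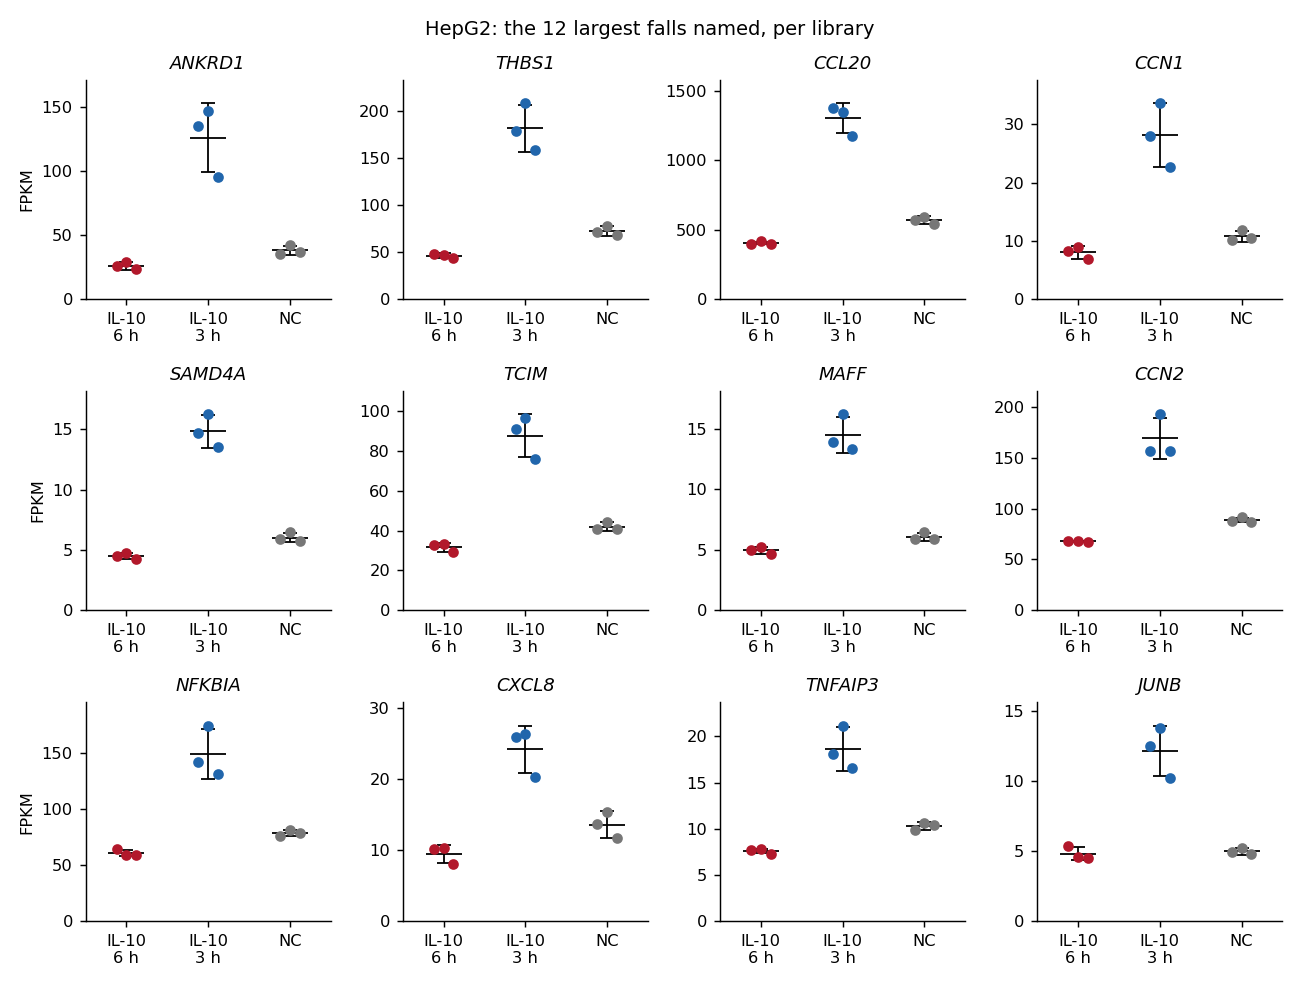
FPKM of the 12 largest falls named in each HepG2 library given IL-10 for 6 h, IL-10 for 3 h or medium alone (NC), 3 points a group, with bars for the mean and SD. In all 12 panels the 3 h libraries lie above both other groups.

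Set against NC, all 12 falls were called higher at 3 h, where 7.17% of all genes were. At 6 h 9 of the 12 were called lower, where 9.80% of all genes were. CCN1, MAFF and JUNB did not pass at 6 h against NC. CCN1 differed there by -0.39 (limma adjusted p = 0.0888), MAFF by -0.24 (0.0998) and JUNB by -0.04 (0.856). JUNB had 4.965, 5.257 and 4.772 FPKM in NC, among its 6 h values. The 12 were taken as the largest falls, so that they stand high at 3 h is in part how they were chosen.

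YAP and SRF target genes, which respond to tension, actin and serum, were among the lists that fell most. Of 29 on the list 24 passed the filter, and of these 22 fell and none rose, with a median difference of -0.68. Over all genes tested 9.57% fell and 6.43% rose, the shares to set beside this and the other list counts. Beside ANKRD1, THBS1, CCN1 and CCN2, the members named next were chosen after their values were seen. SRF itself averaged 17.38 FPKM at 6 h and 39.72 FPKM at 3 h, a difference of -1.14 (limma adjusted p = 1.04e-09). The YAP-responsive kinase NUAK2 fell by 1.23, the Hippo scaffold AMOTL2 by 1.04, and tissue factor (F3), which starts coagulation, by 1.02. Cytoskeletal genes fell less, TAGLN (transgelin) by 0.79, MYL9 (myosin light chain) by 0.70, VCL (vinculin) by 0.65 and FLNA (filamin A) by 0.37. ACTB (beta-actin), not on the list, averaged 1279 FPKM at 6 h and 1741 FPKM at 3 h, a difference of -0.44 (limma adjusted p = 2.66e-05), so it was no constant standard in this comparison. The fibroblast marker ACTA2, also an SRF target, was 1 of the 2 members not called, and DLC1 was the other.

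Immediate early genes fell as a group too. Of 36 listed, 28 passed the filter, and 25 of these fell and none rose, with a median of -0.66. KLF6, a zinc finger factor, had 28.52, 32.05 and 26.38 FPKM at 6 h, against 64.67, 75.39 and 57.45 FPKM at 3 h (difference -1.15, SE 0.086, limma adjusted p = 4.37e-09). Among members chosen after their values were seen, the AP-1 subunits JUN and FOS fell by 0.80 and 0.61, and the zinc finger factor EGR1 by 0.84. EGR1 averaged 4.146 FPKM at 6 h and 8.231 FPKM at 3 h, JUN 12.83 and 23.23 FPKM, and FOS 0.735 and 1.654 FPKM. The RNA decay factor ZFP36 fell by 0.70 and the kinase SGK1 by 0.86. The 3 members not called were HBEGF, IER5 and PLAUR. The 8 members under the filter were all below it at both times, and FOSB averaged 0.1466 FPKM at 6 h and 0.523 FPKM at 3 h.

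NF-kB targets and feedback genes showed the lowest median of the 5 lists that moved most, -0.73. Of 25 listed 20 passed the filter, 19 fell and none rose, and TNIP1 was the member not called. They covered chemokines, inhibitors and the pathway's own subunits. The inhibitor of apoptosis BIRC3 had 1.349, 1.322 and 1.253 FPKM at 6 h, against 3.909, 3.45 and 3.058 FPKM at 3 h, a difference of -0.95 (SE 0.087, limma adjusted p = 6.49e-08) with no overlap. Of members chosen after their values were seen, the chemokine CXCL1 fell by 1.22 and CXCL2 by 1.08, at low levels (CXCL1 averaged 0.4444 FPKM at 6 h and 2.385 FPKM at 3 h). The adhesion molecule ICAM1 averaged 28.86 FPKM at 6 h and 55.51 FPKM at 3 h, a difference of -0.92 (limma adjusted p = 1.97e-09). The subunits NFKB2, RELB, NFKB1 and REL fell by 0.78, 0.69, 0.36 and 0.27, and the mitochondrial superoxide dismutase SOD2 by 0.38.

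Genes that restrain growth factor signalling fell with them. Of 20 MAPK feedback genes 14 passed the filter, 12 fell and none rose (median -0.45), though 1 was called higher with scaling to total reads. DUSP1, a phosphatase of MAP kinases, had 6.55, 6.045 and 5.513 FPKM at 6 h, against 13.29, 15.95 and 12.91 FPKM at 3 h (difference -1.09, SE 0.11, limma adjusted p = 2.03e-07). The EGF receptor inhibitor ERRFI1 had 53.39, 54.25 and 51.52 FPKM at 6 h, against 107.5, 109.4 and 97.35 FPKM at 3 h (difference -0.97, SE 0.05, limma adjusted p = 2.06e-11). In both genes every 6 h library was far under every 3 h library. EPHA2, an ephrin receptor, fell by 0.87, while the ETS factors ETV4 and ETV5 were not called. Of 13 KLF factors 9 passed the filter, 8 fell and none rose (median -0.33), with KLF5 at -0.88 and KLF10 at -0.51. KLF12 was not called, with a difference of 0.14. Across these 5 lists limma counted 0 rises, and at an unadjusted p under 0.05 it counted 1, KLF12, while voom on recovered reads counted 0.

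**Figure D3:**
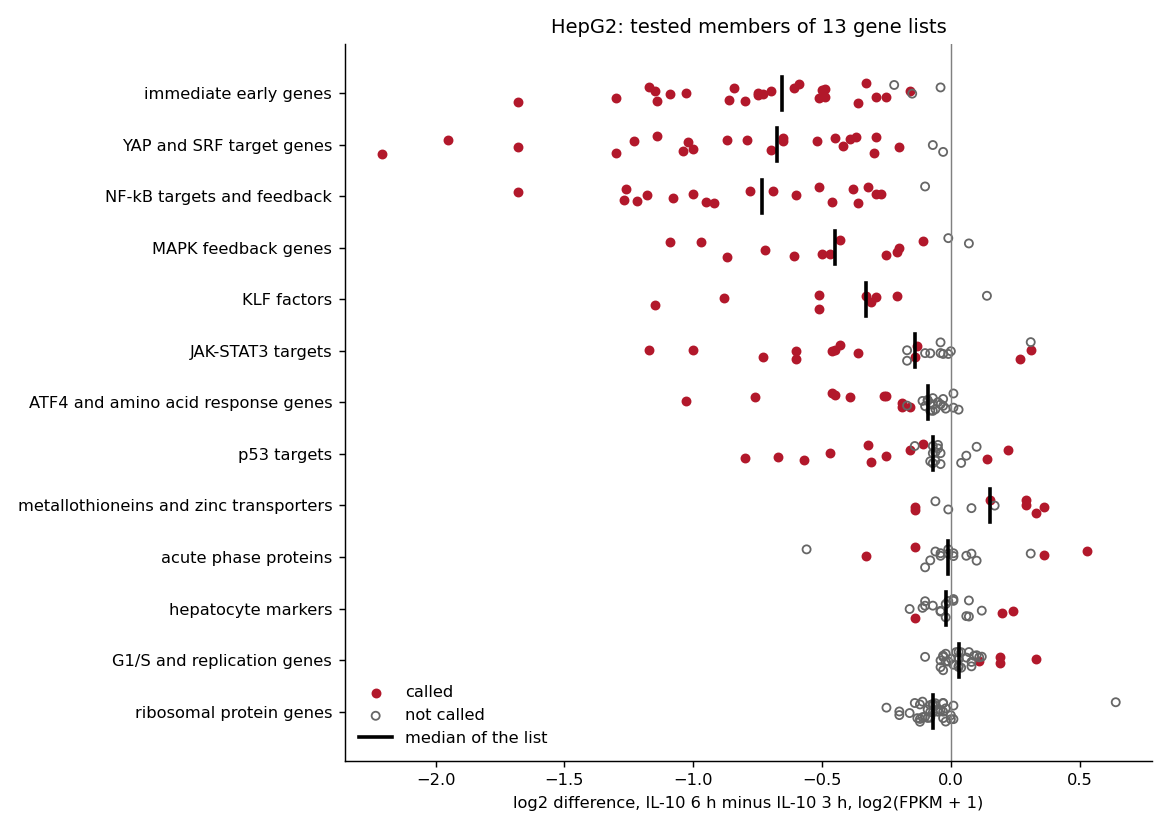
Difference (6 h minus 3 h, log2 scale) of every tested member of 13 gene lists, filled where called, with a bar at the median of each list. Immediate early, YAP and SRF, NF-kB, MAPK feedback and KLF members lie nearly all below 0, while ribosomal proteins, hepatocyte markers and acute phase proteins scatter around it.

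The receptor for IL-10 was barely detected. IL10RA was listed above 0 in 1 of the 6 libraries, at 0.00594 FPKM, and IL10RB had 0.03031, 0.04671 and 0.01982 FPKM at 6 h, against 0.03904, 0.01051 and 0.02767 FPKM at 3 h. The 2 groups of IL10RB overlapped. Its level is uncertain, because it overlaps a readthrough entry that is listed at 0 here, and a listed 0 may be an estimate that failed, as the abundant ferritin gene FTH1 is at 0 too. Of 18 receptor, kinase and STAT genes of this cytokine family 15 passed the filter, of which 2 rose (13.3%) and 5 fell (33.3%), with a median of -0.07. IL22RA1, a receptor for IL-22, had 4.041, 4.043 and 3.763 FPKM at 6 h, against 4.575, 6.012 and 5.459 FPKM at 3 h (difference -0.35, SE 0.064, limma adjusted p = 0.000407). Its 6 h libraries were all below its 3 h libraries, and IFNAR2, an interferon receptor chain, likewise fell, by 0.19. The 5 falls became 3 without replicate 2 at 3 h, and the 2 rises, the IL-6 receptor IL6R at 0.27 and the kinase JAK1 at 0.09, became 1 without replicate 2 or 3 at 3 h or replicate 1 or 2 at 6 h.

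STAT3 had 30.24, 29.72 and 29.0 FPKM at 6 h, against 30.8, 32.79 and 33.96 FPKM at 3 h. The groups were close, with no overlap, and the difference was -0.13 (SE 0.034, limma adjusted p = 0.0127). That call was lost without replicate 2 at 3 h (adjusted p = 0.0503), replicate 3 at 3 h (0.0829) or replicate 3 at 6 h (0.0646), with scaling to total reads (0.093) and with the spread of the 6 libraries alone (0.11). SOCS3, the feedback inhibitor that IL-10 induces in macrophages, had 0.1417, 0.05308 and 0.006757 FPKM at 6 h, against 0.1997, 0.172 and 0.2264 FPKM at 3 h. All 6 values were far under 1 FPKM, and the difference of -0.17 was not called (limma adjusted p = 0.214). It was called with a pseudocount of 0.1 (-0.92, adjusted p = 0.023) and with voom on recovered reads (-2.17, adjusted p = 0.03).

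Of 24 JAK-STAT3 targets 23 passed the filter, 11 fell (47.8%) and 2 rose (8.7%), with a median of -0.14. The members that fell furthest, JUNB, BCL3 (-1.0), MCL1, IRF1 (-0.60) and PIM1, also answer to other early pathways, and JUNB, BCL3 and IRF1 stand on the lists above. The survival factor MCL1 had 97.46, 102.7 and 91.57 FPKM at 6 h, against 166.7, 169.1 and 151.6 FPKM at 3 h (difference -0.73, SE 0.05, limma adjusted p = 1.16e-09). The kinase PIM1 had 14.53, 14.21 and 14.25 FPKM at 6 h, against 21.67, 23.21 and 21.9 FPKM at 3 h (difference -0.60, SE 0.043, limma adjusted p = 2.65e-09). In both genes the groups were well separated. The 2 rises were IL6R and CISH, at 0.31, and 1 remained a call without replicate 2 at 3 h. Fibrinogen FGA was called lower by 0.14 and FGG, at -0.10, was not called.

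Of the TIMP genes, inhibitors of metalloproteinases, TIMP3 moved most, though the design text does not name it. TIMP3, which is held in the matrix, had 33.95, 34.74 and 34.62 FPKM at 6 h, against 52.85, 55.42 and 53.39 FPKM at 3 h. Both groups were tight and far apart, a difference of -0.63 (SE 0.046, limma adjusted p = 2.65e-09), and NC lay between them at 39.78, 41.03 and 39.62 FPKM. TIMP2 had 4.662, 4.869 and 4.409 FPKM at 6 h, against 5.342, 6.019 and 5.358 FPKM at 3 h, a difference of -0.22 (SE 0.057, limma adjusted p = 0.0101). Its groups did not overlap, but the call was lost without replicate 2 at 3 h (adjusted p = 0.0776) or replicate 3 at 6 h (0.0586) and with the spread of the 6 libraries alone (0.0551). TIMP1 had 15.06, 12.55 and 14.43 FPKM at 6 h, against 15.46, 16.81 and 15.42 FPKM at 3 h. These did not overlap either, yet the difference of -0.17 (SE 0.084) was not called (limma adjusted p = 0.178).

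Of 23 MMP genes 3 passed the filter, and limma called 0 of them, also at an unadjusted p under 0.05, as did voom. The membrane-bound collagenase MMP14 had 2.629, 2.481 and 2.281 FPKM at 6 h, against 2.445, 2.814 and 2.594 FPKM at 3 h (difference -0.06, limma adjusted p = 0.501). The groups overlapped, as they did for MMP15, another membrane-bound member, which had 18.12, 16.77 and 18.37 FPKM at 6 h, against 16.65, 18.89 and 19.1 FPKM at 3 h (difference -0.03, limma adjusted p = 0.694). MMP3 differed by -0.10 (limma adjusted p = 0.501). EGF was listed at 0 in all 6 libraries. Of 14 EGF receptor family and ligand genes 5 passed the filter, 2 rose and 1 fell. The receptor ERBB3 had 27.35, 27.73 and 28.09 FPKM at 6 h, against 22.97, 23.16 and 22.92 FPKM at 3 h, a clear separation (difference 0.26, SE 0.032, limma adjusted p = 6.19e-06).
ERBB2 was called higher by 0.13 (limma adjusted p = 0.0165), and this was lost without replicate 2 at 3 h (0.0806) or replicate 1 at 6 h (0.105) and with the spread of the 6 libraries alone (0.101). The ligand AREG was called lower by 0.31 (limma adjusted p = 0.0183), and this was lost without the same libraries (0.149 and 0.0599), with the 6 libraries alone (0.111) and with no filter (0.052). TGFA (0.12, limma adjusted p = 0.0772) and HBEGF (-0.22, limma adjusted p = 0.14) were not called, though TGFA was called without replicate 1 at 3 h (0.17, adjusted p = 0.0264) and with total-read scaling (0.17, adjusted p = 0.0144).

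The rises were fewer and smaller, and CYP1A1 led them. CYP1A1 (chromosome 15, 74719542 to 74725528) had 52.17, 53.79 and 49.84 FPKM at 6 h, against 20.61, 20.52 and 21.08 FPKM at 3 h. Each group was tight, and the difference was 1.28 (SE 0.053, limma adjusted p = 1.68e-12). NC had 43.84, 50.97 and 46.14 FPKM, among or just under the 6 h values. CYP1A1 differed from NC by 0.14 at 6 h (limma adjusted p = 0.0864) and by -1.14 at 3 h (limma adjusted p = 1.77e-11). SOS1, the exchange factor that loads Ras with GTP, had 15.98, 16.17 and 15.1 FPKM at 6 h, against 9.286, 9.506 and 10.23 FPKM at 3 h (difference 0.65, SE 0.051, limma adjusted p = 8.6e-09). Its NC values of 14.73, 15.64 and 15.16 FPKM were close to those at 6 h. The receptor coactivator NCOA3 and CPT1A, which carries fatty acids into mitochondria, were also near NC at 6 h and called below it at 3 h, and rose by 0.46 and 0.43 between the times.

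Ceruloplasmin and ANGPTL8 had 6 h libraries above both the 3 h libraries and NC, while heme oxygenase 1 and AQP3 are given for their difference between times. Ceruloplasmin (CP), a copper-carrying acute phase protein, had 11.39, 10.5 and 10.73 FPKM at 6 h, against 8.866, 5.964 and 7.006 FPKM at 3 h (difference 0.53, SE 0.12, limma adjusted p = 0.00338). CP differed from NC by 0.56 at 6 h (limma adjusted p = 0.00549) and by 0.03 at 3 h (limma adjusted p = 0.911). Heme oxygenase 1 (HMOX1) had 18.66, 16.82 and 16.85 FPKM at 6 h, against 11.95, 11.43 and 13.26 FPKM at 3 h, with no overlap (difference 0.48, SE 0.088, limma adjusted p = 0.000465). The water and glycerol channel AQP3 had 10.13, 8.04 and 6.079 FPKM at 6 h, against 4.629, 5.737 and 4.858 FPKM at 3 h (difference 0.56, SE 0.14, limma adjusted p = 0.00708). Its 6 h libraries were widely spread, and without replicate 1 at 6 h the difference was 0.40 and no longer called (adjusted p = 0.0623), nor was it with the spread of the 6 libraries alone (0.56, adjusted p = 0.0845). ANGPTL8, a liver hormone that regulates lipoprotein lipase, rose by 0.48 (limma adjusted p = 0.0102), a call lost without replicate 2 at 3 h (0.0635) or replicate 3 at 6 h (0.0534).
Set against NC, 5 of the 12 largest rises were called higher at 6 h, where 1.88% of all genes were. At 3 h 7 of the 12 were called lower, where 11.9% of all genes were. They were taken as the largest rises, so this standing against NC is in part how they were chosen. The others of the 12 were PPP1R3C (0.61), which targets a phosphatase to glycogen, DEPDC7 (0.50), the centromere protector SGO2 (0.41) and the mannose-binding lectin MBL2 (0.41).

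**Figure D4:**
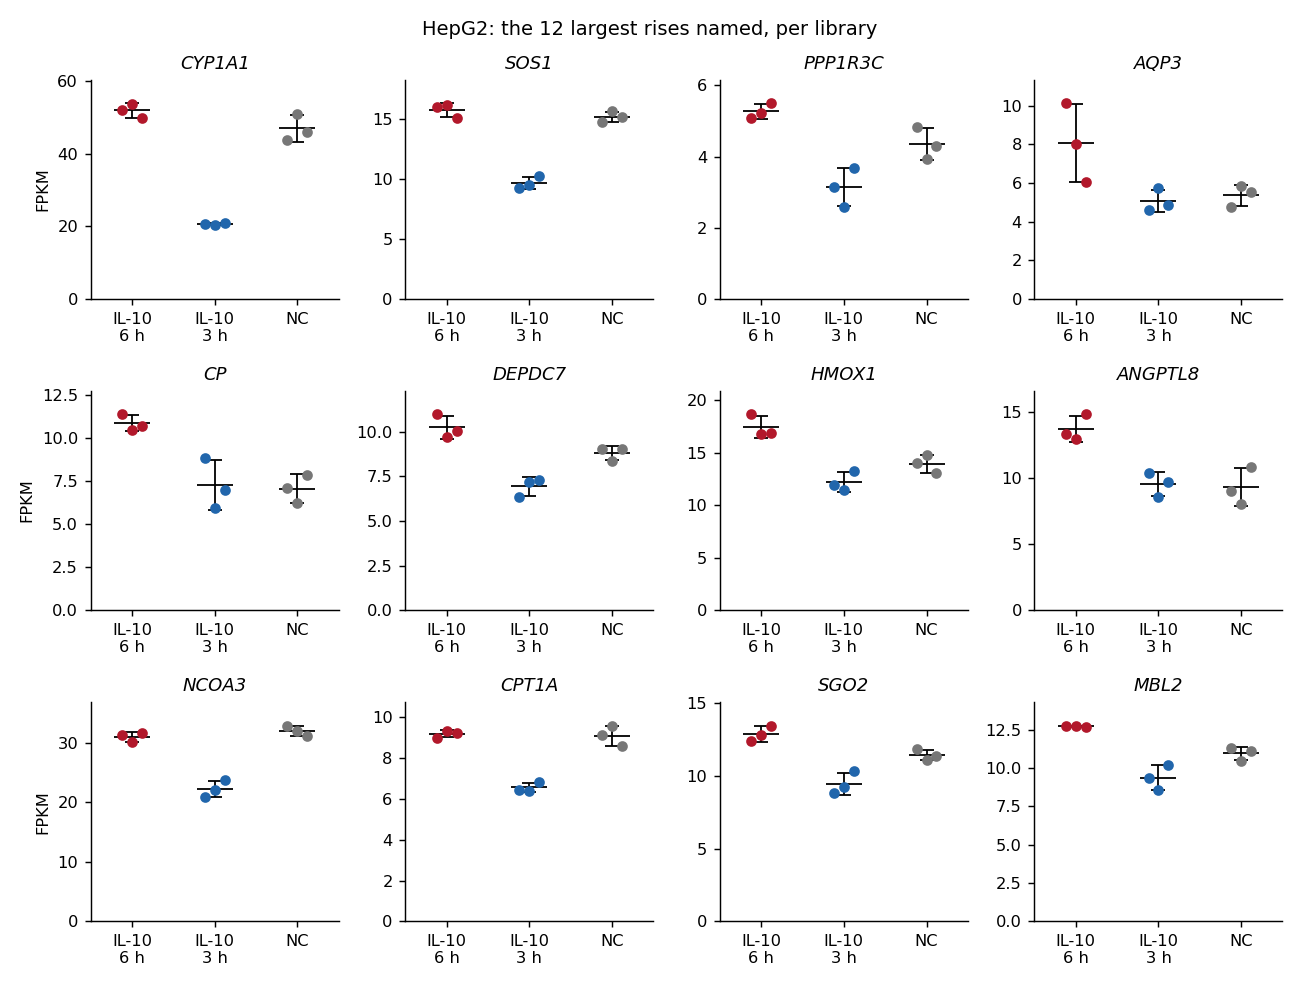
FPKM of the 12 largest rises named in each HepG2 library given IL-10 for 6 h, IL-10 for 3 h or medium alone (NC), 3 points a group, with bars for the mean and SD. In CYP1A1, SOS1, NCOA3 and CPT1A the 3 h libraries lie below both other groups, and in CP and ANGPTL8 the 6 h libraries lie above both.

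Liver genes were called about as often as all genes, of which 16.0% were. Of 18 acute phase proteins that passed the filter 2 rose, CP and the protease inhibitor SERPINA3, and 2 fell, ORM2 by 0.33 and FGA by 0.14. SERPINA3 had 179.6, 161.6 and 151.6 FPKM at 6 h, against 127.9, 123.7 and 129.7 FPKM at 3 h (difference 0.36, SE 0.066, limma adjusted p = 0.00044). All its 6 h libraries were higher. The 2 falls became 0 without replicate 1 or 2 at 3 h or replicate 1 or 3 at 6 h, and 1 without replicate 3 at 3 h or replicate 2 at 6 h. Of 19 hepatocyte markers tested, 2 were higher, the liver factors HNF4A (0.24, limma adjusted p = 0.000245, but 0.057 with the spread of the 6 libraries alone) and CEBPA (0.20, limma adjusted p = 0.0281), and 1 was lower, FGA. CEBPA lost its call without replicate 1 at 3 h (0.142) or replicate 1 (0.108) or 3 (0.0924) at 6 h, with no filter (0.0744) and with the 6 libraries alone (0.0834). FGA lost its call without any 1 of the 6 libraries (adjusted p 0.0539 to 0.0936), with no filter (0.0904), with total-read scaling (0.0729) and with all 54 libraries (0.278).

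Of 11 metallothioneins and zinc transporters tested, 5 rose (45.5%) and 2 fell (18.2%), with a median of 0.15. MT1X, a zinc and copper buffer, had 116.8, 105.4 and 118.3 FPKM at 6 h, against 92.91, 87.56 and 90.05 FPKM at 3 h (difference 0.33, SE 0.08, limma adjusted p = 0.00658), and kept its call throughout. The 5 rises became 1 without replicate 2 at 3 h or replicate 3 at 6 h, and 2 without replicate 1 at 6 h, and the 2 falls became 1 without replicate 2 or 3 at 3 h or replicate 1 or 3 at 6 h.

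Growth control genes shifted modestly. Of 25 p53 targets tested, 9 fell (36%) and 2 rose (8%), with a median of -0.07, where 9.57% of all genes fell and 6.43% rose. The cyclin-dependent kinase inhibitor CDKN1A had 26.77, 26.96 and 25.61 FPKM at 6 h, against 39.04, 42.64 and 37.89 FPKM at 3 h (difference -0.57, SE 0.073, limma adjusted p = 7.39e-06). The stress hormone GDF15 fell by 0.67 and the kinase PLK3 by 0.80. All 3 were named from genes whose groups did not overlap, so their separation was a condition of the choice. The 2 rises became 1 without replicate 1 or 2 at 3 h or replicate 2 or 3 at 6 h. Of 31 G1/S and replication genes tested 4 rose (12.9%) and none fell by limma, voom or at an unadjusted p under 0.05. They were led by CDC6, which loads the replicative helicase, with 42.19, 42.67 and 43.27 FPKM at 6 h, against 33.29, 33.51 and 34.71 FPKM at 3 h (difference 0.33, SE 0.027, limma adjusted p = 1.85e-08). The 4 rises became 2 without replicate 3 at 6 h and 8 with scaling to total reads. Of 29 G2/M and mitosis genes tested 6 rose (20.7%) and 1 fell (3.45%), and the mitotic kinase AURKA rose by 0.23. The 6 rises became 3 without replicate 2 at 3 h or replicate 3 at 6 h and 12 with scaling to total reads, and the 1 fall became 0 without replicate 1 at 6 h.

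Other lists held a few clear members. Of 29 ATF4 and amino acid response genes tested 10 fell and none rose by limma, voom or at an unadjusted p under 0.05 (median -0.09), and the amino acid transporter SLC38A2 had 174.6, 180.3 and 174.6 FPKM at 6 h, against 314.0, 302.9 and 280.4 FPKM at 3 h (difference -0.76, SE 0.04, limma adjusted p = 2.99e-11). Its groups were far apart, while ATF4 itself fell by 0.19. Of 15 circadian clock genes tested 7 fell (46.7%) and 2 rose (13.3%). The clock repressor NR1D1 fell by 0.53 and BHLHE40, another repressor, rose by 0.38. The 7 falls became 4 without replicate 2 at 3 h, and the 2 rises became 0 without replicate 3 at 6 h and 1 without replicate 1 or 2 at 3 h or replicate 1 at 6 h. The progenitor factor SOX9 had 46.11, 41.88 and 41.88 FPKM at 6 h, against 61.22, 69.14 and 62.19 FPKM at 3 h (difference -0.56, SE 0.05, limma adjusted p = 6.02e-08). LGR5, the R-spondin receptor, went the other way, with 41.62, 41.63 and 40.68 FPKM at 6 h, against 32.5, 32.53 and 33.62 FPKM at 3 h (difference 0.32, SE 0.027, limma adjusted p = 1.77e-08). Of 36 ribosomal protein genes limma called 0, while 4 were lower at an unadjusted p under 0.05, and 1 was called lower with voom or without replicate 1 at 3 h.

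Most of these time differences were not told apart from those under the other cytokines in the same line. IL-10's effect of time shares no library with that of IL-6 or TNF-α, and the difference between effects was called for 157 genes against IL-6 (1.39%) and 466 against TNF-α (4.13%). Among the 12 largest falls the difference was called for 1 gene against IL-6 and 5 against TNF-α. Among the 12 largest rises it was called higher for 2 against TNF-α, where 2.02% of all genes were. ANKRD1 had 17.92, 20.7 and 15.02 FPKM at 6 h of IL-6, against 109.1, 137.1 and 107.2 FPKM at 3 h. It had 28.95, 25.79 and 30.8 FPKM at 6 h of TNF-α, against 135.3, 140.3 and 131.7 FPKM at 3 h. The fall under IL-10 differed from that under IL-6 by 0.44 (95% interval 0.04 to 0.85, limma adjusted p = 0.233) and from that under TNF-α by 0.00 (-0.40 to 0.41, limma adjusted p = 0.997), so neither was called. For THBS1 these values were 0.10 (-0.16 to 0.36, limma adjusted p = 0.746) and -0.38 (-0.64 to -0.12, limma adjusted p = 0.102), and the second was called without IL-10 replicate 3 at 3 h (-0.48, adjusted p = 0.032).

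Of the 24 YAP and SRF targets tested, 19 fell under IL-6 (12.2% of all genes fell) and 19 under TNF-α (13.4%), with medians of -0.50 and -0.51. Against IL-6, limma called the difference from IL-10 for 0 of them, where 3 were higher and 6 lower at an unadjusted p under 0.05, and against TNF-α it called 1. CYP1A1 rose by 1.44 under IL-6 and 0.99 under TNF-α, and its rise under IL-10 was called larger than that under TNF-α (0.30, 95% interval 0.14 to 0.46, limma adjusted p = 0.0266). That call was lost without IL-10 replicate 1 or 2 at 3 h or at 6 h, TNF-α replicate 2 or 3 at 3 h or TNF-α replicate 1 at 6 h (adjusted p 0.0512 to 0.0861), with no filter (0.0718), with the 12 libraries alone (0.0567) and with all 54 (0.0858). It was not told apart from the rise under IL-6 (-0.16, -0.31 to 0.00, limma adjusted p = 0.29).

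NF-kB targets set IL-10 apart from TNF-α, the textbook activator of that pathway. Of the 20 tested, the difference was called lower for IL-10 in 15 (2.11% of all genes were called lower), with a median of -0.46. NFKBIA had 342.2, 328.4 and 341.3 FPKM at 6 h of TNF-α, against 428.6, 516.4 and 385.2 FPKM at 3 h. These levels were above every IL-10 library, and the fall under IL-10 was larger by 0.89 (difference -0.89, SE 0.16, limma adjusted p = 0.00221). BIRC3 had 22.04, 18.7 and 22.28 FPKM at 6 h of TNF-α, against 22.05, 19.98 and 21.99 FPKM at 3 h, which overlapped. Its fall under IL-10 was thus the larger (difference -0.93, SE 0.12, limma adjusted p = 0.000161). CCL20 fell under both, with 1688, 1348 and 1590 FPKM at 6 h of TNF-α, against 2779, 2624 and 2530 FPKM at 3 h, and fell further under IL-10 (difference -0.90, SE 0.12, limma adjusted p = 0.000218). Against IL-6, 3 of the 20 were called lower for IL-10 (0.762% of all genes).

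A minority of STAT3 targets differed between IL-10 and IL-6 in their effect of time. Of the 23 tested, the difference was called lower for IL-10 in 7 (0.762% of all genes were called lower) and higher in 1 (0.629% higher). SOCS3 had 8.269, 9.039 and 8.516 FPKM at 6 h of IL-6, against 4.584, 3.216 and 2.955 FPKM at 3 h. Both IL-6 groups lay far above the IL-10 libraries, and the difference was -1.25 (SE 0.13, limma adjusted p = 2.64e-05). SOCS3 passed the filter through libraries outside IL-10, and the size of its difference depends on the scale, -2.18 with a pseudocount of 0.1 (adjusted p = 0.00743) and -3.45 with voom (0.0135). JUNB had 18.26, 19.53 and 17.84 FPKM at 6 h of IL-6, against 20.54, 23.94 and 17.08 FPKM at 3 h. These overlapped, and the fall of JUNB was larger under IL-10 (difference -1.04, SE 0.16, limma adjusted p = 0.00193), a call lost with the spread of the 12 libraries alone (adjusted p = 0.0617). TIMP1 had 27.29, 27.89 and 27.65 FPKM at 6 h of IL-6, against 22.52, 25.0 and 18.67 FPKM at 3 h, all above the IL-10 libraries. The difference of -0.49 (SE 0.12, limma adjusted p = 0.0444) was lost without any 1 of the 12 libraries but IL-10 replicate 1 at 6 h and IL-6 replicates 1 and 2 at 3 h (adjusted p 0.0546 to 0.0992), with no filter (0.106) and with the 12 libraries alone (0.182).

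**Figure D5:**
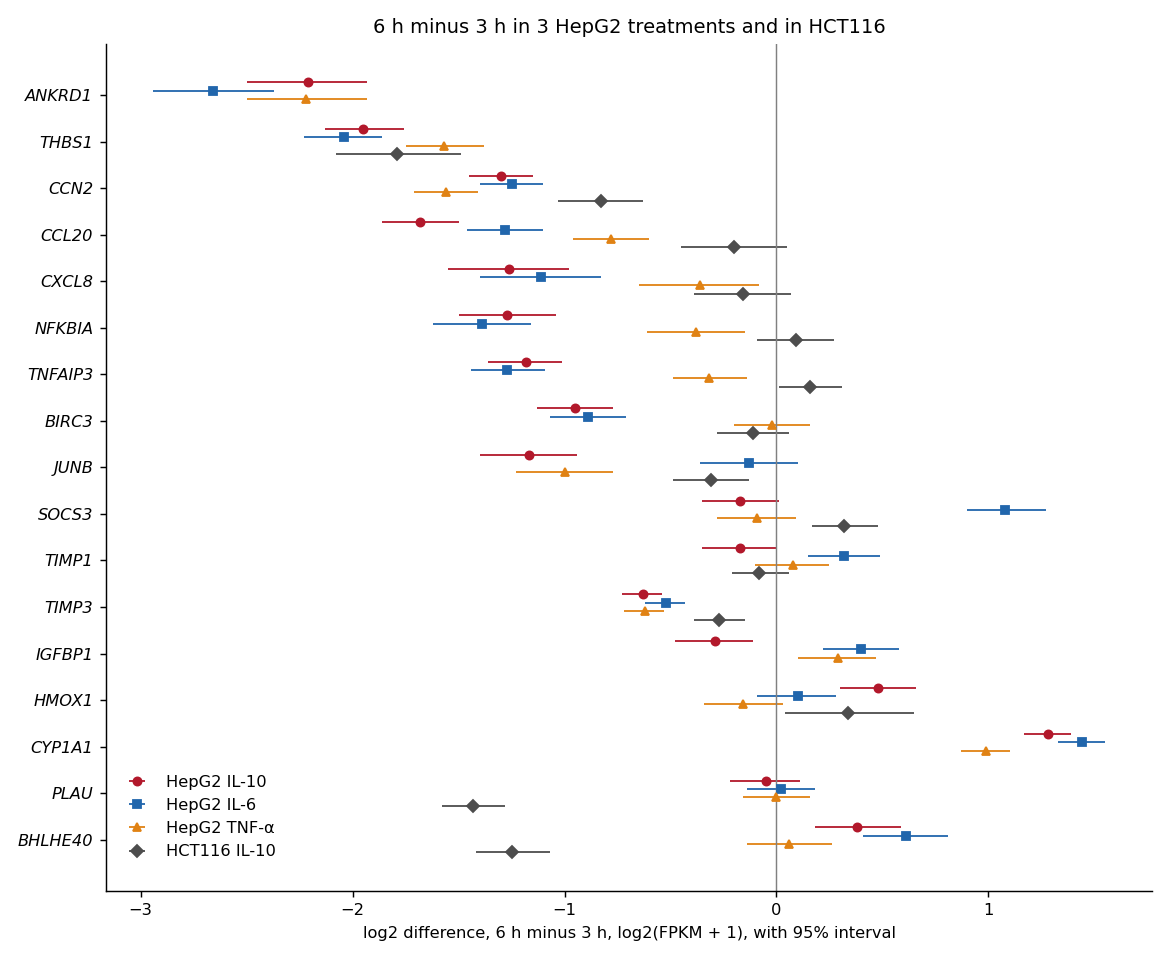
Difference between 6 h and 3 h (log2 scale, with its unadjusted 95% interval) of 17 genes under IL-10, IL-6 and TNF-α in HepG2 and under IL-10 in HCT116, where the gene passed the filter. ANKRD1, THBS1 and CCN2 fall under every treatment shown, NFKBIA, TNFAIP3 and BIRC3 fall further under IL-10 and IL-6 than under TNF-α, and SOCS3 rises under IL-6.

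In HCT116 the same cytokine and times were compared. Of 9683 genes tested in both lines, the effect of time differed for 1646 (17.0%), 536 higher (5.54%) and 1110 lower (11.5%) in HepG2. Of 20 NF-kB targets the difference was called lower for HepG2 in 18, with a median of -0.79. Of these 20, 8 averaged under 1 FPKM in the HCT116 libraries, CCL20 and CXCL8 among them, where log2(FPKM + 1) leaves little room for a fall. Over the other 12, a count added after seeing the data, 10 were called lower for HepG2, with a median of -0.52. Of 20 YAP and SRF targets, none under 1 FPKM in HCT116, 11 were lower for HepG2 and 1 higher, with a median of -0.35. Within HCT116 14 of these 20 fell and 1 rose between the times (median -0.37), where 8.72% of all genes fell and 12.6% rose. Of the 20 NF-kB targets 1 fell and 3 rose there (median 0.01). NFKBIA had 10.19, 9.749 and 9.156 FPKM at 6 h in HCT116, against 9.042, 8.827 and 9.302 FPKM at 3 h, which overlapped. The difference between lines was -1.36 (SE 0.13, limma adjusted p = 1.66e-10). THBS1 fell in both lines, with 3.578, 3.024 and 2.866 FPKM at 6 h in HCT116, against 14.42, 14.68 and 11.07 FPKM at 3 h. The lines were not told apart for it (difference -0.16, 95% interval -0.57 to 0.25, limma adjusted p = 0.652).
The urokinase gene PLAU fell in HCT116 (difference -1.43) and was not called in HepG2 (-0.05, limma adjusted p = 0.692), and BHLHE40 fell in HCT116, with 6.036, 4.928 and 6.583 FPKM at 6 h, against 14.1, 16.17 and 15.3 FPKM at 3 h. In HCT116 itself 21.3% of genes were called between the times, and 8.72% were lower.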

How the data were processed

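Per the labels' protocols, polyA libraries were read as paired ends with an MGISEQ-2000RS. FastQC, HISAT2, StringTie, DESeq2 and GRCh38 stand in the submitters' processing notes, without versions, with the counting tool not given in the sources used here. FPKM values were deposited by the authors for 50037 gene entries, and 48 columns of unnamed comparisons were not used. Steps between low values gave whole reads (tolerance 0.01 read) for all 36451 genes above 0, and the values were already scaled by median-of-ratios factors (ratio 0.998 to 1.002). Counting limits cover counting error only, since reads carry no molecular identifiers.

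Version 3.58.1 of limma (R 4.3.3 with version 1.17.8 of data.table) was fitted with a trend on log2(FPKM + 1) in 27 HepG2 libraries (9 groups, 18 residual degrees of freedom), or in all 54 for differences between lines, with Benjamini-Hochberg adjustment over all genes tested, and tested on simulated data. LRFN3 was just inside the filter (third-highest library 1.0002 FPKM) and CDIPTOSP just outside (0.99998). Alternatives changed the pseudocount, filter, scaling, libraries fitted, test or replicates.

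Named were the 12 largest called rises and falls with a mean of at least 5 FPKM, no overlap and no copy row, the 3 largest called members of each of 43 gene lists, all tested TIMP, MMP and EGF family genes, and the 3 largest differences between effects each way, of which some are not reported here. The members and lists were chosen with earlier results of these data known. Symbols matched RefSeq for 43732 entries, and coordinates count from 1.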

Additional observations from a re-analysis of the deposited data

Results flagged for a closer look

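The difference between 6 h and 3 h under IL-10 in HepG2 was tested against the same difference under another treatment or in the other line, and the results named here passed that test (limma on all HepG2 libraries, or on both lines, adjusted over all genes). Negative values mean that 6 h stood lower against 3 h under IL-10 in HepG2 than in the other setting.

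Against IL-6 the differences were -1.25 for SOCS3 (limma adjusted p = 2.64e-05), -1.04 for JUNB (0.00193), -0.79 for S100P (0.0082), -0.69 for IGFBP1 (0.00741) and -0.49 for TIMP1 (0.0444). SOCS3 passed the filter through libraries outside IL-10. In every IL-10 library it was far under 1 FPKM, where log2(FPKM + 1) leaves little room for a change. S100P, a calcium-binding protein, had 140.7, 136.6 and 133.5 FPKM at 6 h of IL-10, against 158.7, 167.7 and 156.6 FPKM at 3 h. Under IL-6 it had 158.1, 139.9 and 134.5 FPKM at 6 h, against 117.0, 101.5 and 78.29 FPKM at 3 h, so the order of the times was opposite. IGFBP1, a hepatic binding protein of insulin-like growth factors, had 139.0, 136.2 and 116.5 FPKM at 6 h of IL-10, against 171.5, 165.3 and 144.0 FPKM at 3 h, and 330.1, 287.3 and 268.5 FPKM at 6 h of IL-6, against 235.1, 218.5 and 215.0 FPKM at 3 h. In the other direction stood C1orf226 at 0.62 (0.00132), the sphingolipid enzyme SPTLC3 at 0.53 (0.000233) and the cholesterol exporter ABCA1 at 0.40 (0.000139). ABCA1 had 11.63, 11.16 and 11.08 FPKM at 6 h of IL-10, against 11.3, 11.38 and 12.08 FPKM at 3 h, which overlapped, and 10.19, 10.07 and 10.24 FPKM at 6 h of IL-6, against 13.91, 13.73 and 14.63 FPKM at 3 h. With the spread of the 12 libraries alone, C1orf226 (adjusted p = 0.0983), IGFBP1 (0.103), JUNB (0.0617), S100P (0.147) and TIMP1 (0.182) were no longer called, nor was TIMP1 with no filter (0.106).

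Against TNF-α the differences were -0.93 for BIRC3 (limma adjusted p = 0.000161), -0.90 for CCL20 (0.000218), -0.90 for CXCL8 (0.00995), -0.89 for NFKBIA (0.00221) and -0.87 for TNFAIP3 (0.000223). In the other direction stood the ephrin EFNA1 at 0.73 (5.8e-08), HMOX1 at 0.64 (0.00465), the homeobox factor MIXL1 at 0.60 (0.000839) and CYP1A1 at 0.30 (0.0266). EFNA1 had 32.98, 31.46 and 34.65 FPKM at 6 h of IL-10, against 29.17, 27.92 and 28.74 FPKM at 3 h, and 37.56, 37.88 and 36.11 FPKM at 6 h of TNF-α, against 53.2, 55.34 and 53.34 FPKM at 3 h. HMOX1 and CYP1A1 were no longer called with the spread of the 12 libraries alone (adjusted p = 0.0612 and 0.0567) or with all 54 libraries in the fit (0.075 and 0.0858), nor was CYP1A1 with no filter (0.0718).

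Against IL-10 in HCT116 the differences were -1.48 for CCL20 (limma adjusted p = 6.24e-08), -1.36 for NFKBIA (1.66e-10) and -1.34 for TNFAIP3 (1.29e-12), and 1.63 for BHLHE40 (9.6e-13) and 1.38 for PLAU (1.17e-12). CCL20 was near 0 in HCT116, with 0.07848, 0.09467 and 0.09495 FPKM at 6 h and, at 3 h, 0.4832 and 0.3198 FPKM in 2 libraries and a listed 0 in the other. Its difference was no longer called with a pseudocount of 0.1 (adjusted p = 0.175) or with voom (0.585).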

How the results depend on the processing

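Of the 115 genes chosen by the naming rule, 102 were called, of which 69 kept sign and call under all 17 other settings and 33 lost the call under at least 1. The sign turned in uncalled genes only, for MMP15 with total-read scaling (0.01), and in fits that left out 1 library (-0.09 to 0.00; 0.00 without replicate 3 at 3 h or replicate 2 at 6 h), and for ABCA1 with total-read scaling (0.01). Genes called between 6 h and 3 h numbered 1246 (without replicate 2 at 3 h) to 1704 (without replicate 1 at 3 h) with 1 library left out, 1020 with the spread of the 6 libraries alone and 2074 with total-read scaling. Calls of the difference from IL-6 numbered 63 with no filter, 259 with total-read scaling (198 higher and 61 lower), 13 with the 12 libraries alone, 515 with all 54, and 54 (without IL-10 replicate 3 at 6 h) to 434 (without IL-6 replicate 1 at 3 h) with 1 library left out. With median-of-ratios factors its split was 93 higher and 63 lower (59.6% of calls higher, against 45.2%). Calls of the difference from TNF-α numbered 303 with no filter, 251 with the 12 libraries alone, and 281 (without TNF-α replicate 1 at 6 h) to 512 (without TNF-α replicate 2 at 6 h). Those of the difference between lines numbered 1037 with the 12 libraries alone and 1335 (without IL-10 replicate 2 at 3 h) to 1655 in the leave-one-out fits, and total-read scaling split them 750 higher and 738 lower (50.4% higher, against 32.6%), no filter 857 and 1121 (43.3%). The causes were not tested. Between the IL-10 groups at 6 h and 3 h, replicate numbers showed no consistent pairing (correlation of same-numbered deviations -0.11, 0.07 and 0.23). Other groups were not checked in this way, and NFKBIA at 3 h was highest in replicate 2 under IL-10, IL-6 and TNF-α alike. With the number as a replicate block 1888, 235, 498 and 1747 genes were called in the same order of comparisons. Scaling moved the median of all genes by under 0.1. Levels under 1 FPKM, as of SOCS3, IL10RA and most MMP genes, rest on few reads and limit what can be told of them.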
